A study of Mus musculus with 4 samples.

Results

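The genes described here encode 8 proteins of the Myc network: Myc, Mycn, Max, Mnt, Mxd1, Mxd4, Mxi1 and Mlx. They were taken by symbol from the 32285 genes of the deposited matrices of UMI counts, in which a UMI (unique molecular identifier) stands for 1 captured RNA molecule. CD3+CD4+ T cells had been sorted from mouse spleen and held for 6 h with beads that carry anti-CD3 and anti-CD28, a stimulus through the T-cell receptor and the costimulatory receptor CD28. There were 4 libraries, 1 of each sex with the genotype label Irf5-/- and 1 of each sex with the label WT, and all 4 had received the beads. Irf5 encodes interferon regulatory factor 5. Age, strain, the number of mice in a library, and the place of the deletion in Irf5 are not given in the sources used here. The p-values below therefore rest on the spread between libraries, which may be technical. Where cell groups of the same library are compared, this is the spread of the difference within a library. Between the genotype labels it is the spread that remains after sex.

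Myc is a transcription factor that binds DNA as a dimer with Max and raises the expression of genes for ribosome production, metabolism and growth. Mycn is its close relative. Mnt, Mxd1, Mxd4 and Mxi1 also pair with Max, compete for the same DNA sites, and recruit corepressors that lower transcription, while Mlx is a Max-like partner shared by several of these proteins and by glucose-sensing factors. In T cells, Myc is induced by antigen receptor signals and is needed for the growth in cell size that precedes division, and Mxd proteins are best known from resting and differentiated cells.

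The dimers of the network bind the E-box CACGTG. RefSeq promoter windows on GRCm38.p6, 250 bases that end at the transcription start, were found for 7 of the 8 genes, and 3 of the 7 hold this motif. It reads the same on both strands and overlaps no other motif searched. Of all 27025 mouse genes with such a RefSeq window, 6.86% had the motif in at least 1, and among 57 Myc target genes with a window it was 15.8% (9 of 57). The 3 windows are shown because they carry the site that the network's own proteins recognise, with the motif in capitals, each 5′ to 3′ on the strand of its gene. A match is a description of the letters and does not show that any factor was bound. They are Mnt at chr11:74830674-74830923 (plus strand), where the motif starts 123 bases before the RefSeq start at the end of the window, Mxd4 at chr5:34187711-34187960 (minus strand, 219 bases before), and Mlx at chr11:101087040-101087289 (plus strand, 40 bases before).
Mnt: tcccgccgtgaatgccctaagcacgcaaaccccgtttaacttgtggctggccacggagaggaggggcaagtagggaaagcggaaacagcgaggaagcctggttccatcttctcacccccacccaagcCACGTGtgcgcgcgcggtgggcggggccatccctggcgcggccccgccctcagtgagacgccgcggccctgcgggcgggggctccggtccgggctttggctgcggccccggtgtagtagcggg
Mxd4: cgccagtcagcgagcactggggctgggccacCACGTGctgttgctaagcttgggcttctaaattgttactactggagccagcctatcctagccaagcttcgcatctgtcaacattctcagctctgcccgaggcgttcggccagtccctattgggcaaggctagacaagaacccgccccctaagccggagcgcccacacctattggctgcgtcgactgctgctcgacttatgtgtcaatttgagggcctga
Mlx: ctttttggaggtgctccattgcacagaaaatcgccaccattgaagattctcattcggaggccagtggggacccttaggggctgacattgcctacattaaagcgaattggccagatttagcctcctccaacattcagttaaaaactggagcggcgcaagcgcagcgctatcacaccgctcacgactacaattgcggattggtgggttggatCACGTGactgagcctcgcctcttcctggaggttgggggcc

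Cells were barcodes with at least 2000 UMIs, at least 500 detected genes and at most 10% mitochondrial UMIs, which gave 19100 cells. Values by library are given in the order female labelled knockout, female labelled wild type, male labelled knockout, male labelled wild type. They held 6178, 1814, 6543 and 4565 cells, with medians of 5104.5, 8416, 6741 and 9661 UMIs per cell. Between 2 and 14 cell barcodes were shared by any pair of libraries. The T-cell markers (Cd3d, Cd3e, Cd3g, Trac, Trbc2, Cd4) summed to 2086 to 2427 CPM (counts per 1000000 UMIs), and all 6 were detected in each library. The summed markers of other lineages ranged from 7.86 to 10.3 CPM for CD8 T cells, 1.31 to 5.53 for NK cells, 26.8 to 168 for B cells and 35.3 to 93.0 for myeloid cells. Cd8a was at most 0.312 CPM in any library, and Ncr1 of NK cells was at 0 in both male ones. Erythroid markers ranged from 10.8 to 37.4 CPM in 3 libraries but came to 1399 CPM in the female one labelled wild type, and there 55.6% of all UMIs lay in cells, against 83.2 to 89.2% elsewhere. It therefore stands apart, and results that change without it are given both ways.

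Resting and activated cells were told apart by a score that uses none of the 8 genes. Each cell was thinned to 2000 UMIs, and the score was the log2 ratio of the UMIs of 9 early activation genes (such as Cd69, Nr4a1, Egr2 and Irf4) to those of 10 genes of quiescent T cells (such as Klf2, S1pr1 and Il7r), with 1 added to each. Its distribution had 2 modes with a minimum at -1.55, and cells at least 1 unit below or above this minimum were called resting or activated. Resting cells made up 15.8, 15.6, 17.7 and 18.6% of the libraries and activated cells 66.5, 66.6, 67.0 and 67.1%. The groups are ranges of a score rather than cell types, since 905 cells lay within 0.25 of the resting boundary and 1031 within 0.25 of the activated one. Every resting cell had been with the beads as well, because no unstimulated culture was analysed here.

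Between resting and activated cells, 6 of the 7 members that could be tested changed: Myc, Max and Mnt were higher in activated cells, Mxd1, Mxd4 and Mxi1 were lower, and Mlx was not called. Counts were summed per library and state, and edgeR's quasi-likelihood test was fitted with the library as a block. Of all 10612 genes tested, 82.2% were called at an adjusted p under 0.05, 41.7% higher and 40.5% lower, so the number of members called was near the background, and what describes the members is the size and sign of each difference. All 6 calls were kept under each of 14 alternative settings, among them leaving out each library, with fold changes that ranged as given in the closing section.

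The states also differed in other markers and in RNA quality. The summed cycling markers stood at 117, 76.9, 81.3 and 92.3 CPM in resting and 167, 182, 170 and 158 CPM in activated cells. The regulatory T-cell markers (Foxp3, Il2ra, Ikzf2, Ctla4) summed to 184 to 317 CPM in resting and 445 to 572 CPM in activated cells. Over all cells, Il2ra was the highest of these in each library, at 362, 366, 335 and 313 CPM. Foxp3 was the lowest, at 23.2, 7.55, 24.2 and 12.5 CPM. Il2ra also stood in an alternative list of activation genes, so this sum does not by itself measure the share of regulatory T cells. B-cell markers went from 41.5 CPM in resting to 211 CPM in activated cells of the female library labelled knockout. In the other 3 libraries they stood at 45.6 to 70.4 CPM in resting and 15.9 to 45.9 CPM in activated cells. Erythroid markers were higher in the activated cells of each library, at up to 152 CPM against up to 25.4 CPM. The cells between the states (intermediate cells) of the female library labelled wild type, however, held 7472 CPM of them, against 5.02 to 20.5 CPM in those of the other libraries, and the intermediate values of that library below include these cells. The median mitochondrial share of a cell's UMIs was 4.55 to 4.89% in resting and 3.56 to 3.63% in activated cells. The 6 calls held with cells of other lineages removed, but this filter took out only 25 of the 19100 cells. The parts of cycling, of regulatory T cells and of the mitochondrial share were not tested.

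Myc (chr15:61985391-61990374 on GRCm38, plus strand), the growth-promoting factor itself, stood at 22.6, 28.5, 22.4 and 20.8 CPM in the resting cells of the 4 libraries. In the intermediate cells it stood at 120, 123, 84.2 and 113 CPM, and in the activated cells at 408, 458, 342 and 375 CPM. Each library had the same order, and no resting value came near an intermediate value or an intermediate value near an activated one. The mean over libraries was 23.6 ± 3.40 CPM (SD, n = 4) in resting and 396 ± 49.4 CPM in activated cells. The ratio of activated to resting level within a library was 18.1, 16.1, 15.3 and 18.0, and the fitted log2 fold change was 4.28 (SE 0.06, edgeR adjusted p = 8.53e-18). It was 2.10 with second marker lists for the states that share no gene with the first, and 3.40 with 1 boundary at the centre of the score. Free RNA, measured in droplets under 100 UMIs, contained Myc at 260, 253, 202 and 215 CPM, above its level in resting cells. If 5% of each cell's UMIs were free RNA, resting cells would hold 10.0, 16.8, 12.9 and 10.7 CPM of their own and the ratio would be 41.4, 28.0, 27.1 and 36.0, so the ratios above can understate the difference.

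**Figure D1:**
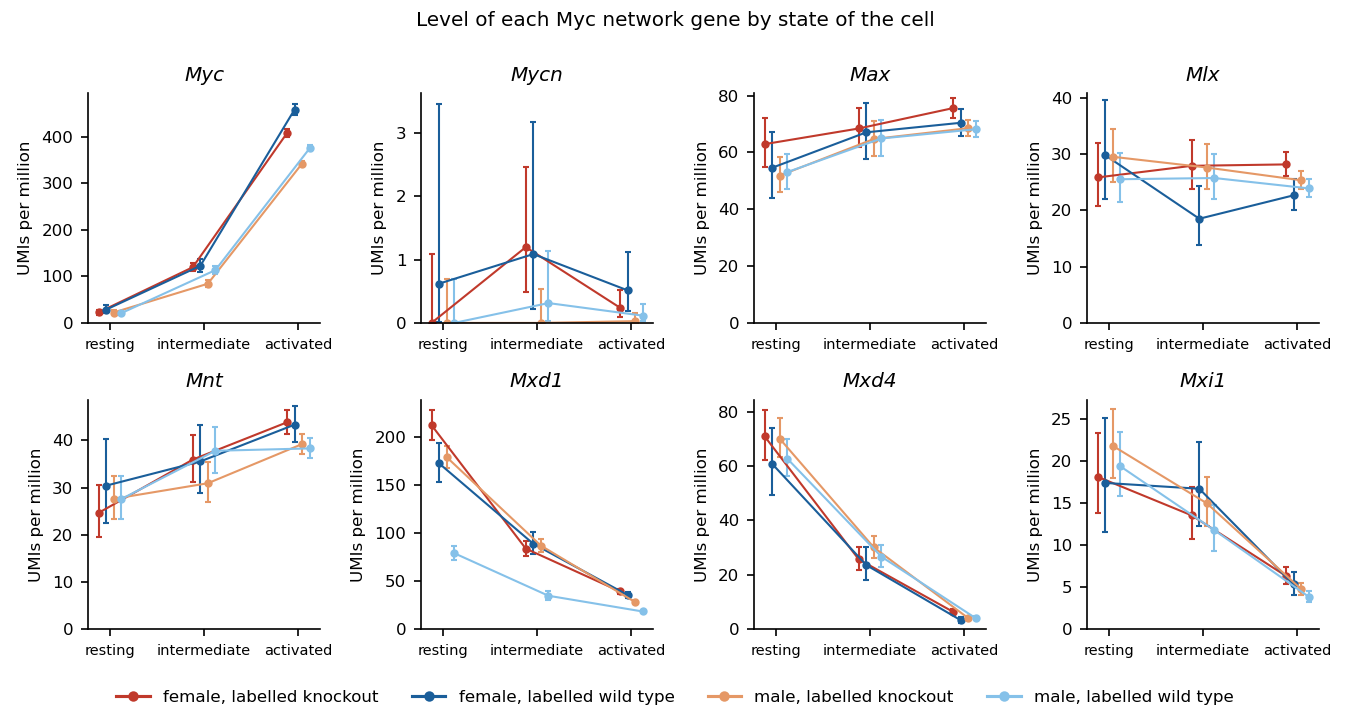
Level of each of the 8 genes in CPM on the y axis, in resting, intermediate and activated cells on the x axis, with 1 line per library and bars for exact 95% Poisson intervals, which cover counting error only. Myc rises from 20.8 to 28.5 CPM in resting cells to 342 to 458 CPM in activated cells in all 4 libraries, while Mxd1, Mxd4 and Mxi1 fall and the Mlx lines cross.

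Mycn (chr12:12936093-12941914, minus strand), which acts like Myc and is best known from embryonic tissues, was almost absent. The libraries held 13, 10, 1 and 6 Mycn UMIs, or 0.380, 0.624, 0.0210 and 0.129 CPM, in 6, 7, 1 and 5 cells. All 30 UMIs lay in cells with at least 10064 UMIs, and the 12070 cells under 8000 UMIs held 0, which allows up to 0.0475 CPM (3 UMIs over their sum). The 19 cells with a Mycn UMI had a T-cell marker sum of 157 CPM, against 2362 CPM over all cells, a cycling marker sum (Mki67, Top2a, Pcna, Mcm5) of 696 against 158 CPM, and an erythroid sum of 536 against 177 CPM. Over all cells of at least 8000 UMIs, the range that holds every Mycn UMI, the T-cell, cycling and erythroid sums were 2294, 178 and 283 CPM. By the score 1 of them was resting, 5 were intermediate and 13 activated. The filter for cells of other lineages took out 0 of these 19 cells, and the part that cells of another type have in the Mycn counts was not tested. Mycn passed the filter on low counts in none of the comparisons of states or of UMIs per cell.

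Max (chr12:76937269-76962201, minus strand), the common dimer partner, stood at 62.9, 54.6, 51.8 and 53.1 CPM in resting and at 75.6, 70.4, 68.5 and 68.2 CPM in activated cells. The lowest activated value lay above the highest resting value. The difference was far smaller than that of Myc, at a log2 fold change of 0.55 (SE 0.07, edgeR adjusted p = 6.50e-07), and it was 0.21 with the second marker lists. The levels of Max in free RNA were 60.7, 47.4, 47.4 and 52.8 CPM.

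Among the Max partners that oppose Myc, Mnt (chr11:74830920-74845725, plus strand), the most broadly expressed of them, moved in the same direction as Myc. Its level was 24.6, 30.4, 27.6 and 27.6 CPM in resting cells and 43.8, 43.3, 39.2 and 38.3 CPM in activated cells. The groups did not overlap, and the log2 fold change was 0.77 (SE 0.08, edgeR adjusted p = 2.16e-07). The separation was widest in the female library labelled knockout and narrowest in the male library labelled wild type, with log2 ratios of CPM of 0.83 and 0.47.

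Mxd1 (chr6:86647042-86669161, minus strand), a repressor known for its rise when cells leave the cell cycle, had 212, 172, 179 and 79.1 CPM in resting cells. The activated cells held 39.3, 35.6, 28.2 and 18.4 CPM. All 4 resting values lay above all 4 activated values, but the male library labelled wild type was low in both states. The log2 fold change was -2.19 (SE 0.08, edgeR adjusted p = 1.76e-13), and it was -1.02 (adjusted p = 0.00222) among cells of 4000 to 8000 UMIs alone. In that range the libraries held 127, 166, 157 and 81.4 CPM in resting and 30.4, 111, 46.0 and 84.6 CPM in activated cells. Mxd1 was thus lower in the activated cells of 3 libraries there but not of the male library labelled wild type. The activated cells had medians of 5708, 9279, 7593 and 10882 UMIs, so in the libraries labelled wild type the range held only activated cells below the median. Mxd1 CPM was higher in activated cells with fewer UMIs, as given below, and the part of this in the exception was not tested.

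Mxd4 (chr5:34173883-34187720, minus strand), a related repressor, was the member with the steepest fall. It went from 70.9, 60.8, 70.1 and 62.7 CPM in resting cells to 6.40, 3.35, 4.09 and 4.06 CPM in activated cells. The libraries lay closer together in resting cells than those of Mxd1, with 66.1 ± 5.11 CPM (SD, n = 4) against 161 ± 57.1 CPM. The log2 fold change was -3.68 (SE 0.11, edgeR adjusted p = 9.86e-15), with log2 ratios of CPM from -4.18 to -3.47 over the libraries. Free RNA held 12.5, 8.09, 11.8 and 9.56 CPM of Mxd4, more than activated cells did in each library, and subtraction of free RNA at 5% of each cell's UMIs took the mean activated level from 4.48 to 4.16 CPM.

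Mxi1 (chr19:53310518-53375810, plus strand), the Max-interacting repressor also known as Mxd2, was low throughout. Its resting cells held 18.1, 17.4, 21.8 and 19.4 CPM and its activated cells 6.32, 5.32, 4.77 and 3.86 CPM. The states did not overlap, and the log2 fold change was -1.79 (SE 0.14, edgeR adjusted p = 4.55e-09), reduced to -0.84 with the second marker lists. As with Mxd4, the free RNA values of 14.6, 12.1, 11.6 and 7.17 CPM exceeded the activated values.

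Mlx (chr11:101087277-101092207, plus strand), the partner of the glucose-sensing factors, held 25.8, 29.8, 29.5 and 25.5 CPM in resting and 28.1, 22.6, 25.3 and 23.9 CPM in activated cells. The values overlapped. The log2 fold change was 0.08 (SE 0.09, edgeR adjusted p = 0.451) and its sign turned to -0.13 without composition factors, a scaling that moved the median of all genes from 0.01 to -0.19. Mlx overlaps Psmc3ip on the opposite strand by 385 bases, and since the use of strand in counting is not given in the sources used here, reads of the pair may not be fully separated (884 UMIs were assigned to Psmc3ip).

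With Mnt, Mxd1, Mxd4 and Mxi1 summed as antagonists, the number of Myc UMIs per antagonist UMI in resting cells was 0.0692, 0.102, 0.0749 and 0.110. In activated cells it was 4.25, 5.23, 4.49 and 5.80. Intermediate cells lay between, at 0.752, 0.744, 0.517 and 1.02. The ratio of UMIs depends on how well each RNA is captured, so it is read only across states, not as a ratio of proteins or of transcripts.

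Some members also varied along the score within the activated cells. In bins of 1 unit, Myc rose in each step from 20.04 ± 4.74 CPM (SD, n = 4) at -4 to -3 to 255 ± 34.1 CPM at 0 to 1 and 1099 ± 212 CPM at 5 to 6, the highest bin. Mxd4 fell from 71.0 ± 8.25 CPM at -4 to -3 to 3.69 ± 1.34 CPM at 1 to 2 and remained low, at 4.16 ± 3.20 CPM, in the highest bin. Max, Mnt and Mlx showed no such order from 0 to 5, where their means over libraries stayed at 63.7 to 72.9, 39.4 to 43.4 and 23.8 to 26.7 CPM.

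Mxd1 did not stay low. It fell from 172 ± 59.5 CPM at -4 to -3 to 15.6 ± 6.19 CPM at 0 to 1 and then rose again to 70.9 ± 26.2 CPM at 3 to 4, 97.0 ± 8.50 CPM at 4 to 5 and 196 ± 82.7 CPM at 5 to 6. In this highest bin, which held 147 cells and 23 in the smallest library, the 4 libraries had 199, 306, 108 and 170 CPM of Mxd1, against 24.3, 13.5, 14.9 and 9.77 CPM at 0 to 1. Each library showed the fall and the second rise, and at 5 to 6 the values lay above those at 0 to 1 in all 4. The median UMIs per cell of the libraries ranged from 6266.5 to 11667 at 0 to 1 and from 4250.5 to 7597 at 5 to 6, and the part of UMIs per cell in the second rise was not tested.

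**Figure D2:**
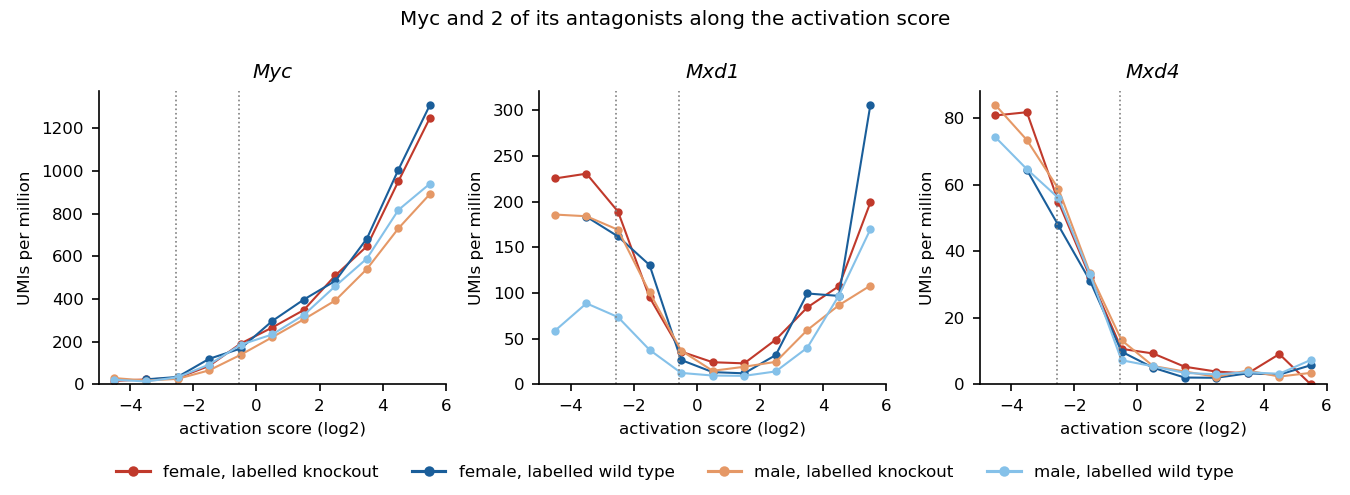
Level of Myc, Mxd1 and Mxd4 in CPM (linear axis) on the y axis against the activation score in bins of 1 on the x axis, with 1 line per library and dotted lines at the resting and activated boundaries. Myc climbs from a score of -4 to the highest bin, Mxd4 falls and stays low, and Mxd1 falls from a mean of 172 CPM to 15.6 CPM and rises again to 196 CPM in the highest bin.

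Cell-to-cell spread also differed between the members. In activated cells thinned to 2000 UMIs, the variance of Myc UMIs over cells was 1.84, 1.96, 1.62 and 1.70 times their mean. For Mxd1 it was 2.43, 2.24, 1.90 and 2.04 times the mean, and the largest count in a cell was 8, although the mean was only 0.0513 to 0.105 UMIs. Max, Mnt and Mlx lay between 0.940 and 1.07 in every library, close to the value of 1 that counting alone gives. Their means were 0.0397 to 0.158 UMIs, against 0.723 to 0.977 for Myc. At low means this ratio stays near 1 more readily, so the distance between these genes and Myc does not by itself show a difference in spread. Mxi1 had 1.31, 1.15 and 1.31 and Mxd4 1.08, 1.21 and 1.07 in the 3 libraries other than the female one labelled wild type, on 27 to 50 UMIs each. Mxd1 UMIs were therefore concentrated in few activated cells.

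These cells were 250 of 4107, 74 of 1209, 231 of 4387 and 103 of 3061 activated cells, or 6.09, 6.12, 5.27 and 3.36%, at 2000 UMIs per cell. The corresponding shares of resting cells with a Mxd1 UMI were 31.0, 25.8, 27.6 and 13.1%, and no cell type known to lack Mxd1 was at hand to give a background share. Free RNA held 50.6, 42.2, 46.0 and 21.8 CPM of Mxd1, more than activated cells did in each library, and at 5% of each cell's UMIs it would supply 2.53, 2.11, 2.30 and 1.09 CPM. With all UMIs of each cell kept, 449, 159, 486 and 280 activated cells held a Mxd1 UMI. For the values here and in the next paragraph, activated cells were split by the counts thinned to 2000 UMIs. Those with a Mxd1 UMI after thinning had 618, 803, 491 and 639 CPM of Myc, and the others had 397, 442, 336 and 368 CPM. With all UMIs kept, the others still held 11.4, 10.7, 10.3 and 7.80 CPM of Mxd1. Myc was thus higher beside Mxd1 in all 4 libraries. The cells with a Mxd1 UMI also had higher median activation scores, at 2.32, 3.13, 2.66 and 3.04 against 1.42, 1.58, 1.58 and 1.58. Myc rose with that score, and its part in this difference was not tested.

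Mxd4 in the same cells was 23.7, 13.4, 16.2 and 14.7 CPM, against 5.51, 2.87, 3.56 and 3.78 CPM in the activated cells without a Mxd1 UMI after thinning. Mxi1 was 15.5, 11.5, 14.2 and 17.0 CPM against 5.85, 5.03, 4.36 and 3.52 CPM. Both repressors were higher in the cells with Mxd1 in each library. The cells with a Mxd1 UMI had lower medians of UMIs per cell (4182, 6752.5, 5658 and 7653 against 5792, 9430, 7701 and 10994.5), and 10.8, 2.70, 11.7 and 6.80% of them were among the barcodes with the highest doublet scores, against 5.81, 1.85, 6.06 and 4.36%. The parts of UMIs per cell and of doublets of a resting with an activated cell were not tested.

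Total UMIs per cell were used as a measure of the growth of a cell, ranked within each library because depth differed between libraries. Between the 25% of cells with the most UMIs and the 25% with the fewest, the members split as they did by state: Myc, Max and Mnt were higher and Mxd1, Mxd4 and Mxi1 lower in the cells with the most UMIs. These 6 calls among 7 tested stand beside 76.5% of 10217 genes called, 38.5% higher and 38% lower, a share near that of the members. These groups also differed in state: 44.3, 41.3, 45.9 and 52.1% of the cells with the fewest UMIs were resting, against 1.36, 0.883, 1.77 and 1.75% of those with the most. The mean mitochondrial share was 4.50, 4.45, 4.66 and 4.69% in the cells with the fewest and 3.63, 3.66, 3.68 and 3.69% in those with the most, and its part was not tested.

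Myc stood at 177, 214, 152 and 143 CPM in the 25% with the fewest UMIs and at 313, 313, 260 and 290 CPM in the 25% with the most. Every upper value exceeded every lower one, with a log2 fold change of 0.95 (SE 0.06, edgeR adjusted p = 2.95e-07). Mxd1 went the other way, from 227, 203, 185 and 93.1 CPM to 21.3, 10.2, 16.3 and 6.86 CPM. Its log2 fold change of -3.53 (SE 0.12, edgeR adjusted p = 3.30e-09) made it the member with the largest difference by UMIs per cell, whereas by state Mxd4 fell furthest among the repressors.

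Mxd4 went from 49.7, 37.2, 52.8 and 50.2 CPM in the cells with the fewest UMIs to 8.07, 5.28, 6.18 and 5.71 CPM in those with the most, without overlap. Mxi1 went from 16.2, 21.6, 18.1 and 18.3 CPM to 7.20, 6.88, 6.80 and 3.79 CPM, also without overlap. The log2 fold changes were -2.79 for Mxd4 and -1.46 for Mxi1 (SE 0.10 and 0.18, edgeR adjusted p = 5.15e-09 and 2.91e-05). Max, with 64.0, 54.6, 56.5 and 57.2 CPM in the lower and 72.1, 71.6, 66.7 and 67.0 CPM in the upper 25%, and Mnt, with 32.4, 30.6, 32.0 and 31.6 against 40.9, 37.6, 34.8 and 37.2 CPM, were higher in the upper 25% by 0.40 and 0.39 on the log2 scale (edgeR adjusted p = 0.000182 and 0.000222). Mlx was not called, at -0.03 (SE 0.07, adjusted p = 0.784), its sign turned under 3 of the alternatives, and it was called without composition factors (-0.18, adjusted p = 0.0357), a scaling that moved the median of all genes to -0.15.

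Within activated cells alone the relation of Myc to UMIs per cell had the opposite sign on the CPM scale. The activated cells of each library were split at the median of their total UMIs into a lower and an upper group, and 3 of the 7 members tested were called, all lower in the upper group: Myc, Mnt and Mxd1. Of all 10631 genes tested 43% were called, 21% higher and 22% lower, so the count of members was again near the background. Myc stood at 475, 566, 409 and 451 CPM in the lower group and at 370, 397, 305 and 330 CPM in the upper group. It was lower in the upper group of all 4 libraries and the groups did not overlap, with a log2 fold change of -0.40 (SE 0.03, edgeR adjusted p = 8.81e-10) that ranged from -0.43 to -0.38 over 12 alternatives. Along the activation score, Myc rose while the medians of UMIs per cell fell. These medians were 6266.5, 10583.5, 8361 and 11667 at a score of 0 to 1 and 4789, 7819, 6375.5 and 8783 at 4 to 5. The part of the score in the differences of Myc and Mxd1 by UMIs per cell was not tested.

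In UMIs per cell, not CPM, Myc rose: the mean was 2.06, 3.96, 2.35 and 3.77 UMIs per cell in the lower group and 2.90, 4.88, 3.17 and 4.73 in the upper group. Cells with more UMIs in all thus held more Myc UMIs, but their Myc UMIs increased by less than their total. Over fixed ranges of 2000 to 4000, 4000 to 8000, 8000 to 16000 and at least 16000 UMIs, Myc in the female library labelled knockout went from 1.63 to 2.44, 3.54 and 4.06 UMIs per cell. In the male library labelled wild type it went from 1.21 to 3.14, 4.34 and 5.87 UMIs per cell. The other libraries rose over the 4 ranges as well, whereas Myc CPM was highest at 4000 to 8000 UMIs in 3 libraries and at 2000 to 4000 in the female library labelled knockout.

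Mxd1 fell on both scales. It stood at 79.4, 79.7, 57.1 and 36.1 CPM in the lower and at 17.1, 10.5, 12.2 and 8.13 CPM in the upper group of activated cells. The log2 fold change was -2.28 (SE 0.08, edgeR adjusted p = 4.47e-13), against -2.19 between the states. Its mean count fell as well, from 0.345, 0.558, 0.328 and 0.302 UMIs per cell to 0.133, 0.129, 0.127 and 0.116, although the cells of the upper group had more UMIs in all. By fixed ranges Mxd1 CPM was lower at 8000 to 16000 than at 4000 to 8000 UMIs in every library and lower at 4000 to 8000 than at 2000 to 4000 UMIs in 3, with an exception in the male library labelled wild type, whose 38 activated cells of 2000 to 4000 UMIs held 1 Mxd1 UMI (8.18 CPM, against 84.6 CPM at 4000 to 8000). At 16000 UMIs and over, the mean count of Mxd1 was again 0.452, 0.244, 0.302 and 0.194 UMIs per cell.

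**Figure D3:**
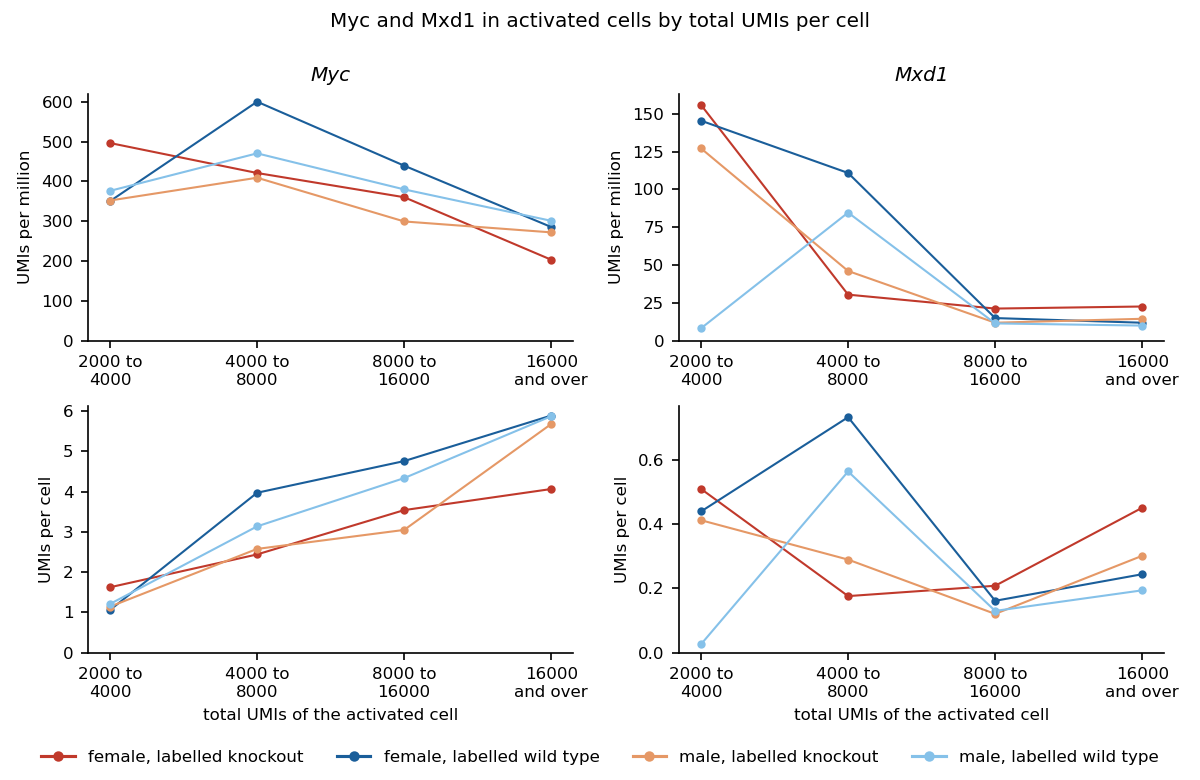
Myc and Mxd1 in activated cells by total UMIs per cell on the x axis (4 ranges from 2000 to 4000 up to at least 16000), as CPM in the upper panels and as mean UMIs per cell in the lower panels, 1 line per library. Myc UMIs per cell rise over the ranges in every library, to between 4.06 and 5.89, while Mxd1 CPM is lower at 8000 to 16000 than at 4000 to 8000 UMIs in every library.

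Mnt was lower in the upper group of activated cells by a small amount, with 45.9, 48.0, 42.6 and 41.6 CPM against 42.7, 40.6, 37.3 and 36.4 CPM. The log2 fold change was -0.15 (SE 0.05, edgeR adjusted p = 0.0131), and the call was lost without the male library labelled knockout (adjusted p = 0.0549), without the male library labelled wild type (0.0505), with DESeq2 (0.196), after thinning (0.204) and with fixed UMI ranges (0.225). Max (-0.08), Mxd4 (-0.35), Mxi1 (-0.33) and Mlx (-0.12) were not called, at adjusted p from 0.0729 to 0.176. With the barcodes of the highest doublet scores removed, Mxd4 (-0.60, adjusted p = 0.00451) and Mxi1 (-0.45, adjusted p = 0.0256) were called as well. This made 5 members, beside 4776 of 10523 genes called in that setting. Mxi1 was also called after thinning (-0.79, adjusted p = 0.0124), and without the female library labelled wild type Max was called (-0.13, adjusted p = 0.0155).

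The genes whose profile was most like that of a member were found over 40 points, 10 equal groups of cells by total UMIs in each of the 4 libraries, by the Pearson correlation of log2(CPM + 1) among 5180 genes of at least 20 CPM. The points share libraries and differ in state, so these values describe the samples and carry no test. Myc was most like Clic4 (0.96), Slc7a5 (0.96) and Tnfsf11 (0.95), a chloride channel protein, a transporter of large amino acids and the cytokine RANKL. Mxd1 was most like Iigp1, Dusp10 and Irf7 (0.98 each), an interferon-inducible GTPase, a phosphatase of MAP kinases and an interferon regulatory factor. Among the genes most like Mxd4 were Rac2 and Tspo (0.97 each). Max, Mnt and Mlx had looser neighbours, the closest being Fkbp5 (0.79), Ube2w (0.79) and Ssu72 (0.76), and Mycn and Mxi1 lay under 20 CPM.

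Other genes of the pathway were taken from lists of Myc targets, of Myc cofactors and turnover factors, and of further network members. Of 61 Myc targets tested, 55 were higher in activated cells and 2 were lower, with a median log2 fold change of 2.69 against 0.01 over all genes, of which 41.7% were higher. The leading targets were Hk2 (4.53), which encodes hexokinase 2, Srm (3.78), which encodes spermidine synthase, Tmem97 (3.69) and Dusp2 (3.60), and the 2 that fell were Mcm4 (-1.19), a subunit of the replicative helicase, and Cbx3 (-0.98), a heterochromatin protein. Between the 25% with the most and the 25% with the fewest UMIs, 55 of 60 targets were higher and 2, again Mcm4 (-0.95) and Cbx3 (-0.38), were lower, with a median of 1.51. The share over all genes was 38.5% higher and 38% lower. Within activated cells 30 of 59 targets were higher in the group with more UMIs and 7 lower, or 50.8 and 11.9%, beside 21 and 22% of all genes, with a median of 0.11 against 0.0016 over all genes. Here Slc29a2 (0.71), a nucleoside transporter, Hk2 (0.66) and the mitochondrial chaperonins Hspe1 (0.61) and Hspd1 (0.60) rose, while Dusp2 (-0.63) and Odc1 (-0.47), the first enzyme of polyamine synthesis, fell as Myc CPM did.

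Of 21 cofactors and turnover factors, 12 were higher in activated cells and 6 lower, with a median log2 fold change of 0.59. These are 57.1 and 28.6% of the list, beside 41.7 and 40.5% of all genes. Ruvbl1 (2.40) and Ruvbl2 (2.35), ATPases of chromatin complexes that Myc recruits, and Wdr5 (2.17), which anchors Myc on chromatin, rose most. Usp28 (-1.36), a deubiquitinase that stabilises Myc, and Gsk3b (-1.09), the kinase that marks it for degradation, fell most, followed by Hdac1 (-0.56) and Trrap (-0.46). Among the further network members, Mga (0.69) and Mlxip (0.28) were higher and Usf1 (-1.95) and Usf2 (-0.28) lower, the latter a pair of factors that bind the same E-box. Txnip (-3.43), a target of dimers of Mlx with glucose-sensing factors, fell although Mlx itself was not called. These calls are edgeR's at an adjusted p under 0.05 over all genes.

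**Figure D4:**
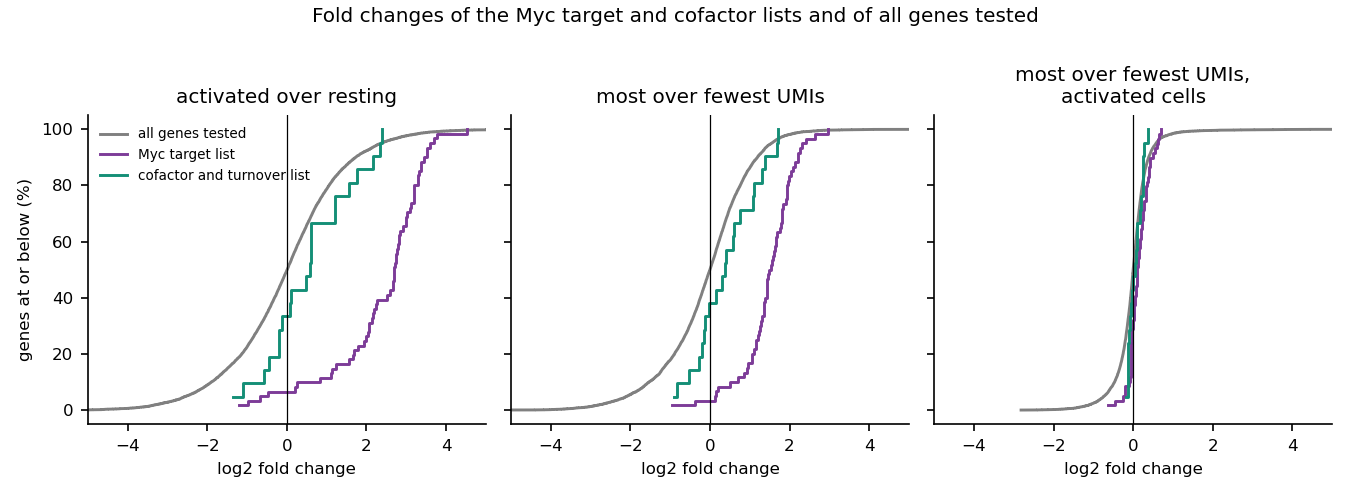
Cumulative share of genes (y axis) by log2 fold change (x axis) for all genes tested, Myc targets, and Myc cofactors and turnover factors, in 3 comparisons: activated against resting cells, most against fewest UMIs, and the same within activated cells. The Myc target curve lies to the right of all genes in the first and second comparisons, with medians of 2.69 and 1.51, and near it in the third, with a median of 0.11.

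The study's own comparison is between the genotype labels. Irf5 was counted at 8.57, 0.936, 9.07 and 1.18 CPM (293, 15, 432 and 55 UMIs), higher in both libraries labelled knockout, which goes against the labels. Counts of 3′ ends cannot check a deletion that lies elsewhere in the gene, and the directions below are those of libraries by their label. The libraries labelled knockout also had fewer UMIs per cell in each sex, with resting medians of 3244.5 and 4341 against 5472 and 6019.5 and activated medians of 5708 and 7593 against 9279 and 10882.

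None of the 8 members was called between libraries labelled knockout and libraries labelled wild type over all cells, with sex in the model (edgeR adjusted p from 0.153 to 0.993, 2 members at an unadjusted p under 0.05, and 0 called by DESeq2). Of all 12855 genes 1.21% were called. Over all cells, Myc stood at 320, 357, 269 and 298 CPM. Each library labelled knockout lay below its counterpart of the same sex, but the labels overlapped across sexes, and the log2 fold change was -0.22 (SE 0.08, edgeR adjusted p = 0.429), or -0.20 in females and -0.24 in males. Mxd1 stood at 63.9, 58.5, 53.5 and 27.7 CPM. The male library labelled wild type was low and the other 3 were close together, so that the log2 fold change of 0.48 (SE 0.13, edgeR adjusted p = 0.153) came to 0.09 in females and 0.86 in males.

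The remaining members differed little by label over all cells: Max by -0.02 on the log2 scale, Mnt by -0.07, Mxd4 by 0.15, Mxi1 by 0.10 and Mlx by 0.12, with standard errors of 0.08 to 0.12. Mycn came to -1.17 with a standard error of 0.63, on 30 UMIs. Among cells of 4000 to 8000 UMIs alone, an alternative chosen after the data were seen, the values turned to 0.43 for Myc (adjusted p = 0.0749) and -0.996 for Mxd1 (0.0780). Mxd4 (-1.34, adjusted p = 0.00820) and Mxi1 (-0.89, adjusted p = 0.0157) were called lower in the libraries labelled knockout. These 2 calls stand beside 2853 of 11280 genes called, a share near that of the members. In that range 5.27, 30.5, 19.9 and 45.2% of the cells were resting, so the labels were no longer balanced in state there.

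Within resting cells, 0 of 7 members were called between the labels (edgeR, 1 at an unadjusted p under 0.05, 0 called by DESeq2), beside 0.111% of 9915 genes. The resting Mxd1 levels given above were higher in the library labelled knockout of each sex, with a log2 fold change of 0.71 (SE 0.16, edgeR adjusted p = 0.124), or 0.26 in females and 1.10 in males. Over 11 alternatives this adjusted p ranged from 1.96e-06 to 1.00, and Mxd1 was called in 4: without composition factors, without the low-count filter, after thinning, and with the second marker lists. Myc in resting cells came to -0.13 (SE 0.18, adjusted p = 0.966), with -0.37 in females and 0.03 in males.

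Within activated cells, 0 of 7 were called (edgeR, 2 at an unadjusted p under 0.05, 0 called by DESeq2), beside 0.962% of 12062 genes. Myc was lower in the library labelled knockout of each sex, with a log2 fold change of -0.23 (SE 0.08, edgeR adjusted p = 0.368), equal to -0.22 in females and -0.23 in males. With the second marker lists it was called, at -0.29 (adjusted p = 0.0126). Mxd1 came to 0.31 (SE 0.11, adjusted p = 0.375), was called at 0.34 (0.0314) without cells of other lineages and at 0.82 (5.61e-08) with the second marker lists, and turned to -1.37 (0.00252) among cells of 4000 to 8000 UMIs. The sign of the Mxd1 difference by label in activated cells thus depended on which cells were compared. The range of 4000 to 8000 UMIs held only activated cells below the median of UMIs in the libraries labelled wild type. In those labelled knockout it held cells on both sides of the median, and the part of this was not tested. Mxd4 came to 0.32 (SE 0.22), with 0.87 in females and -0.09 in males.

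**Figure D5:**
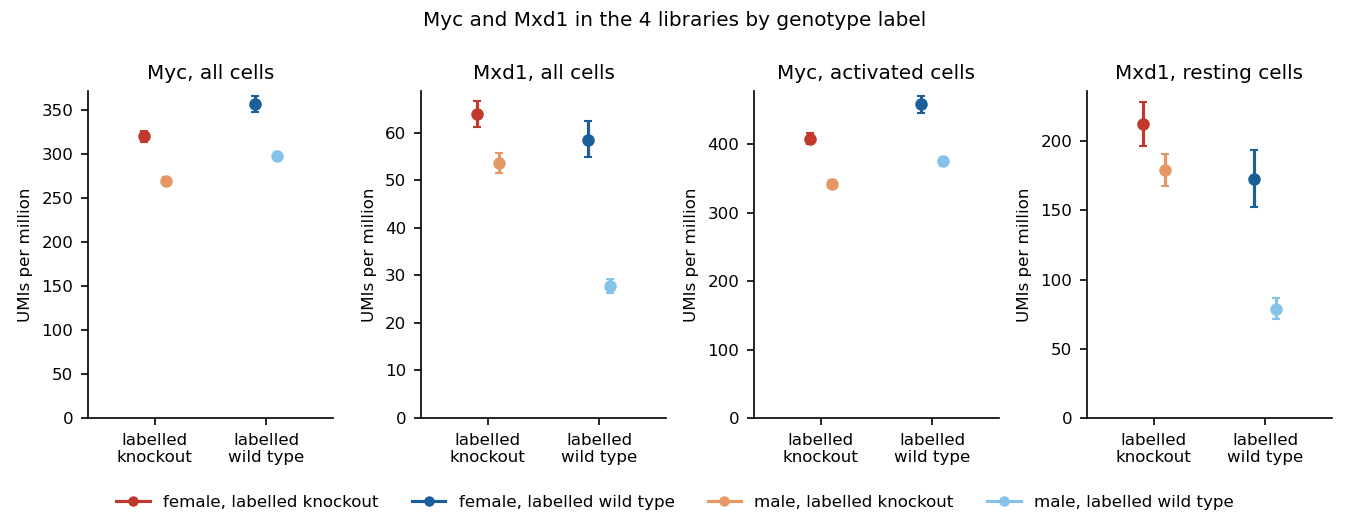
Level in CPM by genotype label on the x axis, 1 point per library with its exact 95% Poisson interval, for Myc and Mxd1 in all cells, Myc in activated cells and Mxd1 in resting cells. Myc is lower in the library labelled knockout of each sex in both Myc panels, and Mxd1 is lowest in the male library labelled wild type, at 27.7 CPM in all cells and 79.1 CPM in resting cells.

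The difference between the states was tested for a dependence on the label as an interaction term, and 0 of 7 members were called (edgeR, 1 at an unadjusted p under 0.05, 0 called by DESeq2), beside 0.142% of 11293 genes. For Myc the interaction was -0.11 (SE 0.16, edgeR adjusted p = 0.954). For Mxd1 it was -0.40 (SE 0.12, edgeR adjusted p = 0.415), and it was called at -0.50 (adjusted p = 0.00659) when the female library labelled wild type was left out. No gene among the Myc targets, cofactors and turnover factors, further network members or Mlx-dimer targets was called by label in any of these 4 comparisons, and the median log2 fold change of the Myc targets over all cells was -0.05.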

How the data were processed

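UMI counts per gene and barcode were deposited by the authors as matrices of all barcodes, with no normalization, and were made with Cell Ranger 6.0.2 on mm10 per the submitters' processing notes (the file headers name software version 4 of Cell Ranger). Filters used in counting are not given in the sources used here. The members and all gene lists were chosen with earlier results of these data known. Total UMIs were 38334976, 28841161, 53494911 and 55850754 in the female and male libraries (labelled knockout before labelled wild type in each sex). Cells had at least 2000 UMIs, 500 genes and at most 10% mitochondrial UMIs. UMIs were summed per library and cell group, and CPM is UMIs per 1000000 UMIs of that sum. Intervals are exact 95% Poisson intervals and cover counting error only.

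Tests were edgeR 4.0.16 quasi-likelihood fits in R 4.3.3 on the summed counts, with TMM factors, filterByExpr and Benjamini-Hochberg adjustment over all genes tested, with calls at an adjusted p under 0.05. Library was the block within libraries, and sex was in the model between labels, so that libraries of the same sex are compared. Sex is the only label that ties a library of one genotype label to one of the other. Fits used 4 or 8 sums, and DESeq2 1.42.0 was an alternative. Score, thinning and doublet scoring (scanpy 1.11.5, highest scores removed at 0.8% per 1000 cells, as an alternative) used Python 3.11.15 with seed 1. On simulated counts for activated against resting cells (10212 genes), the fit recovered 66.5% of genes changed by 0.5 on the log2 scale, for the labels (12678 genes) 46.7%, and for the interaction of state and label (10399 genes) 22.6%. The simulated counts came from a pooled profile with a common dispersion for all genes. They had no library or sex effects and few changed genes, so these shares are not the power of the fits to the real counts. All 8 members were named, and of each further list up to 4 called genes per direction with the largest change. Some genes are not reported here. Coordinates were taken by gene identifier from GENCODE on GRCm38, with 99.6% of identifiers matched, and promoter sequences from RefSeq on GRCm38.p6.

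Alternatives were no composition factors, DESeq2, no low-count filter, doublets removed, cells of other lineages removed (25 cells), thinning to 2000 UMIs, each library left out, no sex term, other score boundaries, second marker lists, fixed UMI ranges, subtraction of 5% free RNA, and, chosen after the data were seen, cells of 4000 to 8000 UMIs and cells with at most 5% mitochondrial UMIs. The second lists gave a score with 1 mode, so their centre was set at 0.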

Additional observations from a re-analysis of the deposited data

Results flagged for a closer look

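In 8 results the sexes moved in opposite directions between the labels, which was not tested further because each sex has 1 library per label. The male minus female difference of the log2 fold change was -0.14 for Max and 0.19 for Mxi1 over all cells. In resting cells it was 0.40 for Myc, -0.27 for Max and 0.38 for Mlx, and in activated cells -0.95 for Mxd4, -0.14 for Max and -0.27 for Mlx. The Mxd4 difference rests on 39 to 160 UMIs per library. The cause of these differences was not tested.

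In other results 1 library lay far from the other 3 by Dixon's criterion, which chance meets in about 1 of 20 groups. Between the upper and lower groups of activated cells by UMIs, the log2 ratio of Max in the female library labelled wild type was 0.14, above 0 while the other 3 were below. In the same comparison Mxd1 in that library was lowest, at -2.92, and Mxi1 was lowest in the male library labelled wild type, at -0.82. Between activated and resting cells, Mnt was highest in the female library labelled knockout, at 0.83. The 4 libraries had the same sign in each of these apart from Max.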

How the results depend on the processing

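Depth limits Mycn most, with 30 UMIs over all libraries, and the resting cells of the female library labelled wild type, 283 in number. No sex or label comparison has more than 2 libraries per label. The 6 members called between the states and between the cells with the most and the fewest UMIs remained called under each alternative run. Without composition factors the median of all genes moved by over 0.1 on the log2 scale between the states (to -0.19) and between the cells with the most and the fewest UMIs (to -0.15), and the calls by label went from 104 higher and 51 lower to 92 and 23 over all cells, from 6 and 5 to 35 and 12 in resting cells, and from 82 and 34 to 100 and 17 in activated cells. Mlx, never called by state, turned to -0.13 without composition factors and -0.068 with boundaries 2 from the centre, and came to -0.013 to 0.15 with a library left out, and by UMIs it turned to 0.035 without the low-count filter and 0.058 with fixed UMI ranges, and came to -0.081 to 0.0050 with a library left out. The level of Myc in resting cells went from 23.6 to 12.6 CPM after subtraction of free RNA. Myc in activated against resting cells ranged from 2.10 to 4.87, Max from 0.21 to 0.68, Mnt from 0.42 to 0.90, Mxd1 from -2.39 to -1.02, Mxd4 from -4.13 to -2.68 and Mxi1 from -2.29 to -0.84. The causes of the changes in this section were not tested, apart from those that follow from fewer genes, cells or libraries.

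Between the upper and lower groups of activated cells by UMIs, 3 members were called and 5 with doublets removed, where 4776 of 10523 genes were called. The 4574 genes called came to 2821 with DESeq2, 2936 after thinning and 2149 with fixed UMI ranges. For the interaction of state and label, the 16 genes called came to 7 with DESeq2, 93 without the low-count filter, 3 after thinning, 26 with boundaries 2 from the centre, 68 with the second marker lists, and 13 to 245 when a library was left out (245 without the female library labelled wild type), where 0 to 1 members were called. The Myc interaction turned to 0.23 with 1 boundary at the centre and ranged from -0.20 to 0.033 over the libraries left out. The Mxd1 interaction turned to 0.12 with the second marker lists, and ranged from -0.51 to -0.28 over the libraries left out.

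Over all cells, 155 genes were called between the labels, 47 with DESeq2, 20 without the low-count filter and 59 after thinning. Among cells of 4000 to 8000 UMIs 2853 of 11280 genes were called, and 2 members. In that range Myc came to 0.43, Max to 0.30, Mnt to 0.27, Mxd1 to -0.996, Mxd4 to -1.34 and Mxi1 to -0.89, each with the sign turned. Max also turned to 0.050 without composition factors and 0.00086 after thinning, and Mxi1 to -0.12 after thinning. With a library left out, the log2 fold change of the other sex was -0.085 to 0.057 for Max and -0.0039 to 0.18 for Mxi1.

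In resting cells the 11 genes called between the labels came to 47 without composition factors, 3 with DESeq2, 100 without the low-count filter, 5 with doublets removed, 37 after thinning, 90 with 1 boundary at the centre, 2 with boundaries 2 from the centre, 139 with the second marker lists and 33 among cells of 4000 to 8000 UMIs. The 1 member called without composition factors (0.76), without the low-count filter (0.71), after thinning (0.83) and with the second marker lists (0.62) was Mxd1. Myc turned to 0.074 after thinning, 0.31 with boundaries 2 from the centre and 0.15 among cells of 4000 to 8000 UMIs, and came to -0.37 to 0.026 with a library left out. In activated cells the 116 genes called came to 28 with DESeq2, 67 without the low-count filter, 349 with other lineages removed, 261 with boundaries 2 from the centre and 536 with the second marker lists. There, 1 member was called with other lineages removed (Mxd1, 0.34), 2 with the second marker lists (Myc, -0.29, and Mxd1, 0.82) and 1 among cells of 4000 to 8000 UMIs (Mxd1, -1.37, where Mxd4 came to -1.21), a range in which 25 genes were called higher and 141 lower. Mxd4 came to -0.086 to 0.87 with a library left out.

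The paired analysis by sex is the one reported. With no replicate block (no sex term) 7 genes were called between the labels over all cells, 3 in resting cells and 7 in activated cells, and no member in any of these.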
